A study of Mus musculus with 7 samples.

Results

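The MAP kinase phosphatases Dusp1, Dusp2, Dusp4, Dusp5, Dusp6, Dusp8 and Dusp10 and the Sproutys Spry1, Spry2 and Spry4 were followed in mammary glands of mice that overexpress the A form of the progesterone receptor (PRA transgenics) and of wild-type mice. The 10 genes, feedback brakes of the MAP kinase routes, were taken by name, from a list drawn up with earlier results of these data known. Every array probe that carries 1 of these names was included, which gave 14 probes, 6 genes with 1 probe and 4 genes with 2. Of the 14 probes 13 were bright enough to be tested, among 34288 tested of 56605 on the array. All 10 genes had at least 1 tested probe, and the brightest one stood for its gene, as it did for each of the 22486 gene symbols tested.

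The study compared 3 wild-type with 4 PRA transgenic animals, all nulliparous FVB females of 20 to 25 weeks harvested at diestrus. The transgenics were bigenic: a CMV promoter drove GAL-4, which in turn switched on a PR-A gene behind GAL-4 binding sites, and the controls were wild-type littermates. From each animal 1 abdominal gland without its lymph nodes gave the RNA for 1 array. Gland RNA was labelled with Cy5 and hybridized beside Cy3-labelled Universal Mouse Reference RNA, a pool from 11 mouse cell lines, with no dye swap. Each value below is the log2 ratio of gland to that reference unless Cy5 alone is named, so a value compares the same probe between animals and does not rank genes against each other. In whole glands, a change in RNA per cell and a change in the number of cells that hold the RNA cannot be told apart.

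MAP kinases (ERK, JNK and p38) are switched on by phosphorylation of a threonine and a tyrosine, and dual-specificity phosphatases remove both phosphates. Several of these phosphatases are themselves transcribed when the kinases are active, so that their mRNA rises with signaling and then limits it. Sproutys act further upstream, at the cell membrane, where they damp the passage of growth factor signals to Ras and ERK. In the mammary gland the ERK route carries signals of EGF family and FGF ligands during ductal growth and branching.

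All 7 arrays lay on 1 slide, wild-types in 1 row and transgenics in the other, so an effect of position on the slide and one of genotype cannot be told apart. Cy5 was well above background for 62.7 to 66.2% of probes on wild-type arrays and for 56.7 to 60.2% on transgenic arrays. For Cy3, which carries the same reference on every array, the shares were 53.2 to 54% and 47.2 to 50.6%. The share of probes above background was thus lower in both channels on the transgenic arrays. No probe was saturated. The lists of luminal, basal, fat, muscle, endothelial, fibroblast, macrophage, T and B cell markers overlapped between genotypes in 9 of 9 cases. The luminal list ranged from 2.98 to 3.63 in wild-type and from 2.94 to 3.40 in transgenic glands, and fat markers from 5.26 to 5.98 over all arrays, so the defining markers of both the epithelium and the fat of the gland were present. Both tested Pgr probes had lower means in the transgenics (by log2 differences of -0.53 and -0.65, limma adjusted p = 0.886 and 0.859). Those means rested on wild-type animal 1, the highest of all on both probes, at 5.13 and 7.05. On both probes wild-type animals 2 and 3 lay below transgenic animals 1, 2 and 3 and above transgenic animal 4. Whether the probes lie in the transgene is not given in the sources used here, so they do not check the labels.

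Of the 10 genes, 3 passed an unadjusted P of 0.05 in the limma fit, and all 3 were lower in the PRA transgenics: Dusp1, Dusp5 and Dusp6. None was higher. Over all genes tested, 4.35% passed the same threshold in the lower direction and 3.6% in the higher. After Benjamini-Hochberg adjustment over all probes none of the 10 passed, the lowest adjusted p being 0.421, while 0.0117% of all probes passed. With Cy5 alone Dusp5 and Dusp6 passed, both lower, against 4.56% of all probes. The log2 difference between genotypes was negative for 7 genes and positive for 3, with a median of -0.16 beside 0.01 over all genes, of which 47.3% were negative. In Cy5 alone it was negative for 9 of the 10, with a median of -0.22 beside 0.0028 over all probes tested. The share of all genes negative in Cy5 alone was not computed, so that count has no background beside it. The members share a pathway and several are induced together, so these counts are not counts of independent events.

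**Figure D1:**
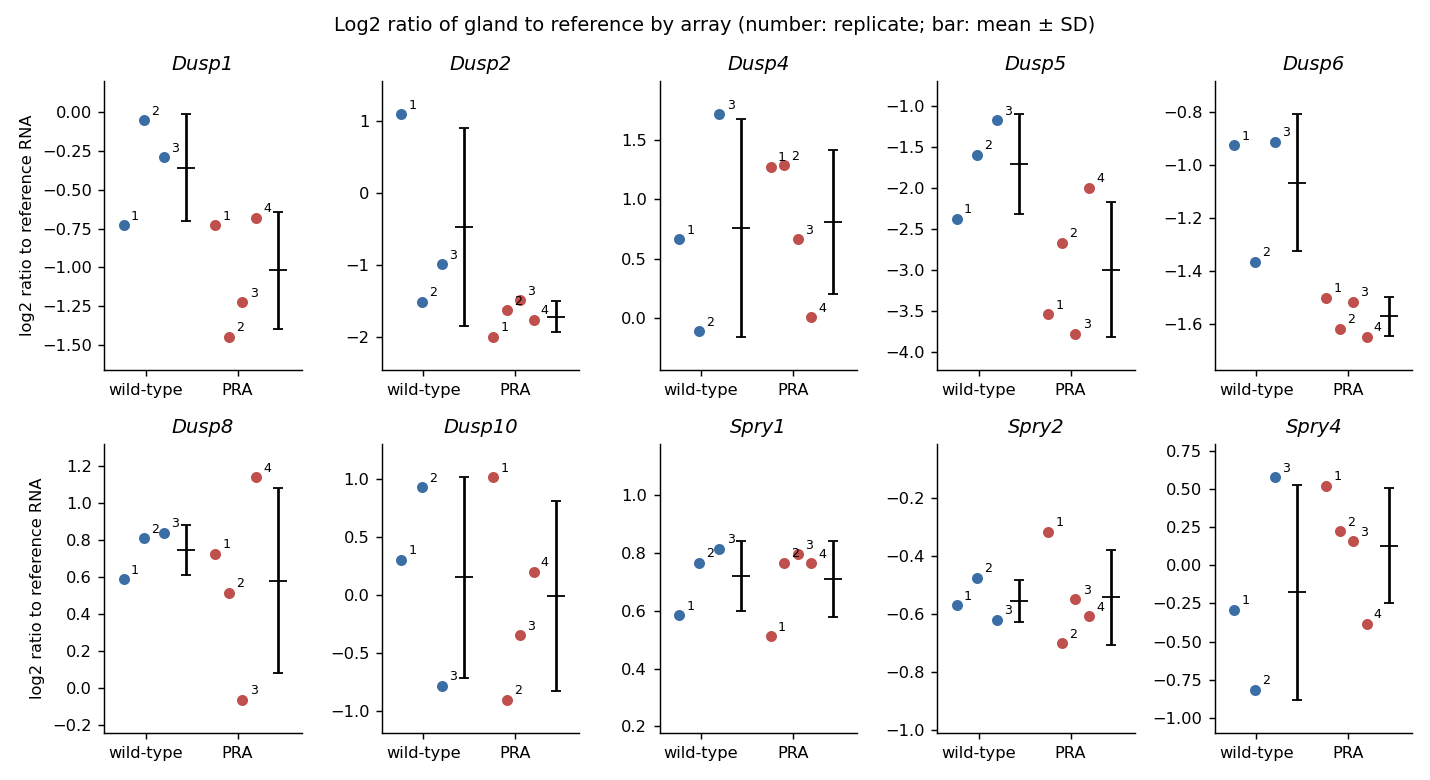
Log2 ratio of gland to reference RNA (y axis) for the brightest probe of each of the 10 genes in the 3 wild-type and 4 PRA transgenic animals, with the replicate number beside each point and the mean with its SD as a bar. Each panel has its own scale spanning at least 1 log2 unit. Dusp6 is the 1 gene whose genotypes do not overlap, Dusp2 is set apart in wild-type animal 1 alone, and Spry1 and Spry2 hardly differ between animals.

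Windows around the transcription start were read for the 3 lower genes and for Dusp8, which has the same cAMP response element (CRE) as Dusp1 but was not called. RefSeq windows of GRCm38.p6, from 250 bases before to 50 after the start, were at hand for 8 of the 10 genes, the others being Dusp4 and Spry4. The 250 bases before the start are printed 5′ to 3′ on the gene's strand, for Dusp1 at chr17:26508473-26508722 (minus strand), Dusp5 at chr19:53528895-53529144 (plus), Dusp6 at chr10:99262981-99263230 (plus) and Dusp8 at chr7:142095285-142095534 (minus). Capitals mark CREs, the shorter CRE core TGACG and CArG boxes on either strand. In Dusp6, which holds none of these, they mark Ets cores (GGAA, read TTCC from the other strand).
Dusp1: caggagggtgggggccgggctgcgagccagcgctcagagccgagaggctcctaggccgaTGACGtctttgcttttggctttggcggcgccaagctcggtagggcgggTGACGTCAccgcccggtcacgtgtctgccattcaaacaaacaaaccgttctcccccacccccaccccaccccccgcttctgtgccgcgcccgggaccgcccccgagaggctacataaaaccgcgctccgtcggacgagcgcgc
Dusp5: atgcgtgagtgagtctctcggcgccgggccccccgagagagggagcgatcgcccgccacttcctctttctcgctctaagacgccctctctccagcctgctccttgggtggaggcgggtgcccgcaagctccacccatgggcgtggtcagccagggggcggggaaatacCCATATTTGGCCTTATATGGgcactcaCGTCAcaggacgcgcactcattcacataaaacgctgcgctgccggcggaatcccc
Dusp6: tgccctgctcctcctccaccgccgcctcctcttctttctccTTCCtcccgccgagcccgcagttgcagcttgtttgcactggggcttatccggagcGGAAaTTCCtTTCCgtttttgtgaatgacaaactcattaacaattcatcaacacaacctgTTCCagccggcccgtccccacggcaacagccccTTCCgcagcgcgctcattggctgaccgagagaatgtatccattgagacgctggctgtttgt
Dusp8: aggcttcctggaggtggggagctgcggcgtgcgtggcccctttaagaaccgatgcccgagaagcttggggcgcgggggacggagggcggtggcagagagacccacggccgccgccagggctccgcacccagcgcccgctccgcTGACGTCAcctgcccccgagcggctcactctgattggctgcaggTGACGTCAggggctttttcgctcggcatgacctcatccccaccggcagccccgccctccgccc

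The windows of all 3 lower genes held the Ets core, as nearly all windows do, and those of Dusp1 and Dusp5 also held the core TGACG. The only Ets core of Dusp1 lay after the start, outside the printed bases. Dusp1 held 1 full CRE (TGACGTCA), 143 to 136 bases before the start, and Dusp8 held 2, at 107 to 100 and at 63 to 56 bases. A full CRE occurs in 1.79% of the 32851 windows of 300 bases in the table, and the core TGACG, of which each full CRE counts as 2 matches, in 20.8%. Dusp5 held 2 adjoining CArG boxes, the binding motif of serum response factor, at 82 to 73 and 72 to 63 bases before the start, and a CArG box occurs in 1.63% of windows. Dusp6 held 6 Ets cores and Spry2, which was not called, held 5. The median window has 3 and 96% of windows have at least 1. None of the 8 windows held an AP-1 motif (TGACTCA or TGAGTCA, 5.2% of windows) or a TATAAA box (13.6%), and Dusp2, Dusp10, Spry1 and Spry2 held neither a full CRE nor a CArG box. A match is a run of letters and not evidence of binding.

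Dusp6 encodes a cytoplasmic phosphatase that acts on ERK alone and is itself a target of ERK signaling through Ets factors. Its probe (mm9 chr10:98729985-98730044) read -0.92, -1.36 and -0.91 in wild-type animals 1 to 3, and -1.50, -1.62, -1.51 and -1.65 in transgenic animals 1 to 4. All 4 transgenics lay below all 3 wild-types, with the smallest gap between transgenic animal 1 and wild-type animal 2. The wild-type mean was -1.07 ± 0.26 (SD, n = 3) and the transgenic mean -1.57 ± 0.07 (SD, n = 4), a 1.42-fold lower ratio (log2 difference -0.50, SE 0.15, 95% interval -0.85 to -0.16, limma adjusted p = 0.421). Genotypes that do not overlap with the transgenics lower were found for 4.51% of all genes.

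Cy5 alone gave nearly the same difference for Dusp6 (-0.47, limma adjusted p = 0.465), again without overlap, and the reference channel moved by only 0.04. Of the 35 ways to divide the 7 animals into groups of 3 and 4, none gave a larger difference (exact permutation p = 0.0286, two-sided, the smallest that this design allows). Dusp6 also kept an unadjusted P under 0.05 in 20 of 20 other settings, with log2 differences from -0.65 to -0.42 and adjusted p from 0.294 to 0.708. The permutation p largely restates the lack of overlap, and the settings refit the same 7 arrays. Dusp6 was also the member with the lowest P of the 10, so neither is independent evidence. The spread of Dusp6 over the 7 arrays was ordinary: 49% of genes had a smaller range.

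The genes whose log2 ratios ran closest to those of Dusp6 were Psd, Hnrnpm, Bclaf1, Ptger4 and Oog2. Their root mean square difference from Dusp6 over the 7 arrays, after centering each gene on its own mean, was 0.0671 for Psd and 0.101 for Oog2, while Dusp6 itself varied by 0.288 around its mean. These 5 were the nearest of 21068 probes with both channels above background.

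Dusp5 encodes a nuclear phosphatase for ERK, induced by serum and growth factors. Its brighter probe (mm9 chr19:53616779-53616838) read -2.37, -1.60 and -1.17 in the wild-types and -3.54, -2.67, -3.78 and -2.0 in the transgenics. Transgenic animals 1, 2 and 3 lay below all wild-types, whereas animal 4 lay between wild-type animals 1 and 2. The means were -1.71 ± 0.61 (SD, n = 3) and -2.99 ± 0.82 (SD, n = 4), a 2.43-fold lower ratio (log2 difference -1.28, SE 0.48, 95% interval -2.42 to -0.14, limma adjusted p = 0.506). The largest point estimate among the 10 genes therefore came with a wide spread between animals, larger than that of 96% of genes.

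Dusp5 was lower by nearly as much in Cy5 alone (-1.18, limma adjusted p = 0.556). An exact permutation test gave p = 0.114. The P under 0.05 was lost when wild-type animal 2 (-1.22), wild-type animal 3 (-1.01), transgenic animal 1 (-1.10) or transgenic animal 3 (-1.02) was left out. The other Dusp5 probe was too dim to test, with Cy5 above background on 1 of 3 wild-type and 2 of 4 transgenic arrays, and its untested difference was 0.66 for the ratio and 0.12 for Cy5 alone. It gives no check of the brighter probe.

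Dusp1 encodes a nuclear phosphatase for p38, JNK and ERK and is an immediate-early gene. Its probe (mm9 chr17:26642624-26642683) read -0.73, -0.05 and -0.29 in the wild-types and -0.73, -1.45, -1.23 and -0.68 in the transgenics. The genotypes overlapped: transgenic animals 2 and 3 lay below all wild-types, while animals 1 and 4 stood level with wild-type animal 1. The means were -0.36 ± 0.34 (SD, n = 3) and -1.02 ± 0.38 (SD, n = 4), a 1.58-fold lower ratio (log2 difference -0.66, SE 0.25, 95% interval -1.26 to -0.07, limma adjusted p = 0.507).

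In Cy5 alone Dusp1 differed by -0.53 (limma adjusted p = 0.637), and the reference channel was 0.14 higher on the transgenic arrays. An exact permutation test gave p = 0.171. The P under 0.05 held in 12 of 20 other settings and was lost without wild-type animal 2 (-0.51), wild-type animal 3 (-0.63), transgenic animal 2 (-0.52) or transgenic animal 3 (-0.60).

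Dusp2 encodes a nuclear phosphatase that is induced in activated lymphocytes and other blood cells. Its probe (mm9 chr2:127163930-127163989) read 1.09, -1.51 and -0.99 in the wild-types and -1.99, -1.62, -1.48 and -1.76 in the transgenics. Wild-type animal 1 stood far above the other 6 animals, which spanned -1.99 to -0.99. Between genotypes Dusp2 differed by -1.25 on the log2 scale (SE 0.57, 95% interval -2.59 to 0.10, limma adjusted p = 0.587), with an exact permutation p = 0.0571. Without wild-type animal 1 it shrank to -0.47, and without wild-type animal 2 it grew to -1.77 and passed an unadjusted P of 0.05. The range of Dusp2 over the 7 animals, 3.08, was larger than that of 97.7% of genes, for which the median range was 0.75.

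The animal that was high for Dusp2 was also high for lymphocyte markers. The mean of 9 T cell markers was 1.50 in wild-type animal 1 and between -0.75 and -0.16 in the other 6 animals (Trac was not tested). All 9 were highest in that animal. Of the defining T cell genes, Lck read 0.70 there and -2.06 to -1.47 elsewhere. The mean of 5 B cell markers was 0.76 in wild-type animal 1 and -1.08 to -0.43 elsewhere (Cd79a, Blk and Fcer2a were not tested). The genes nearest to Dusp2 in their pattern were Ltb (root mean square difference 0.195), Lck (0.223), 1700097N02Rik (0.276), Gpr171 (0.312) and Lef1 (0.345), against a variation of 0.970 for Dusp2 itself. Ltb encodes lymphotoxin beta, Lck a T cell kinase and Lef1 a transcription factor of lymphoid and other cells. All 5 were highest in wild-type animal 1, and the part of lymphocyte content in the Dusp2 value was not tested beyond leaving that animal out.

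**Figure D2:**
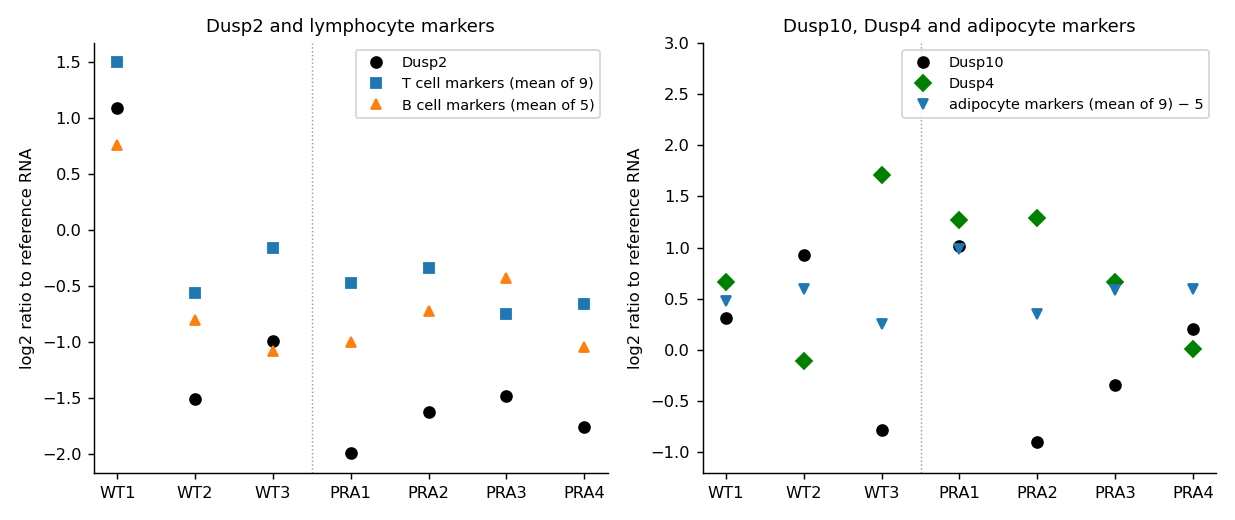
Log2 ratio to reference RNA (y axis) by animal (x axis, wild-type left of the dotted line). The left panel sets Dusp2 beside the mean of 9 T cell and 5 B cell markers, and Dusp2 and both means are highest in wild-type animal 1, and the right panel sets Dusp10 and Dusp4 beside the mean of 9 adipocyte markers, shown after subtracting 5, where neither phosphatase separates the genotypes.

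Dusp4, Dusp8 and Dusp10 did not separate the genotypes, and their intervals were wide. Dusp4, a nuclear phosphatase induced by ERK (mm9 chr8:35884806-35884865), read 0.66, -0.11 and 1.71 in the wild-types and 1.27, 1.29, 0.66 and 0.01 in the transgenics. The transgenic values all lay within the wild-type range. The log2 difference was 0.05 (SE 0.49, 95% interval -1.09 to 1.19, limma adjusted p = 0.988), and the other probe gave 0.38 (adjusted p = 0.887). The interval of the brighter probe holds a change of 2-fold in either direction.

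Dusp8 is directed at JNK and p38, and its brighter probe (mm9 chr7:149265636-149265695) read 0.59, 0.81 and 0.84 in the wild-types and 0.73, 0.51, -0.06 and 1.14 in the transgenics. Transgenic animals 3 and 4 were the lowest and the highest of all 7. The log2 difference was -0.17 (SE 0.27, 95% interval -0.81 to 0.47, limma adjusted p = 0.902), and the other probe gave -0.37 (adjusted p = 0.763). Dusp8, with 2 full CREs, and Dusp1, with 1, thus differed in whether they passed the unadjusted threshold, and the difference between the genes was not tested.

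Dusp10, which acts on p38 and JNK (mm9 chr1:185898608-185898667), read 0.31, 0.93 and -0.78 in the wild-types and 1.02, -0.90, -0.34 and 0.20 in the transgenics. The animals of both genotypes spread over the same range, wider than that of 89.4% of genes. Dusp10 differed between genotypes by -0.16 (SE 0.54, 95% interval -1.44 to 1.12, limma adjusted p = 0.964). Dusp10 was highest in transgenic animal 1 and lowest in transgenic animal 2 and wild-type animal 3. The mean of 9 adipocyte markers was also highest in transgenic animal 1, at 5.98, and lowest in wild-type animal 3 and transgenic animal 2, at 5.26 and 5.35. For the other 4 animals the marker mean was 5.48 to 5.60 while Dusp10 ran from -0.34 to 0.93, and the part of fat content in Dusp10 was not tested.

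None of the 3 Sproutys passed the threshold, and the intervals of Spry1 and Spry2 were narrow. Spry1 (mm9 chr3:37543194-37543253) read 0.58, 0.77 and 0.81 in the wild-types and 0.51, 0.77, 0.80 and 0.76 in the transgenics. The lowest animal of each genotype was its animal 1. Spry1 differed between genotypes by -0.01 (SE 0.13, 95% interval -0.31 to 0.29, limma adjusted p = 0.990), and the range of 0.30 was larger than that of only 8.39% of genes. For Spry1 a difference of the size measured for Dusp6 (-0.50) lay outside the interval.

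Spry2 (mm9 chr14:106291385-106291444) read -0.57, -0.48 and -0.62 in the wild-types and -0.32, -0.70, -0.55 and -0.61 in the transgenics. The highest and the lowest of the 7 were both transgenic. The log2 difference was 0.01 (SE 0.13, 95% interval -0.29 to 0.32, limma adjusted p = 0.989), and the other probe gave 0.04 (adjusted p = 0.966). The range over the animals was larger than that of 16.1% of genes, and the interval again left out a difference of -0.50.

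Spry4 (mm9 chr18:38745923-38745982) was less firmly measured. It read -0.29, -0.81 and 0.58 in the wild-types and 0.52, 0.22, 0.16 and -0.38 in the transgenics, so that the highest and the lowest animal were both wild-type. The ratio was higher in the transgenics by 0.31 (log2, SE 0.35, 95% interval -0.52 to 1.14, limma adjusted p = 0.845), but Cy5 alone differed by -0.073. The reference channel was above background for this probe on 3 of 3 wild-type and 0 of 4 transgenic arrays, so the ratio rests on a dim denominator in the transgenics.

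**Figure D3:**
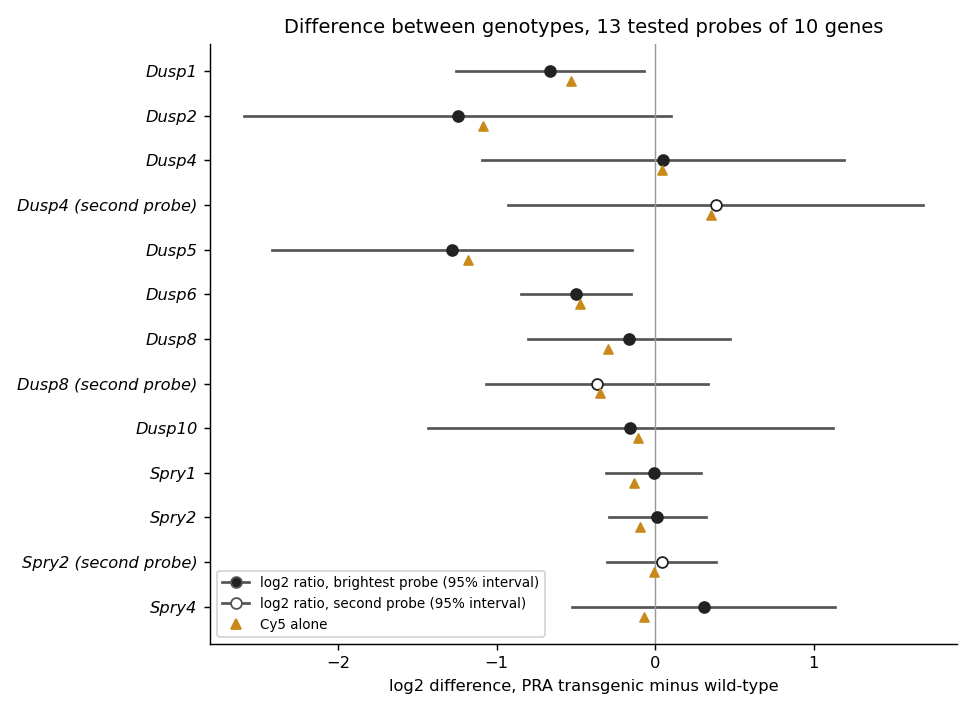
Log2 difference between genotypes (x axis, PRA transgenic minus wild-type) for the 13 tested probes of the 10 genes, as points with 95% intervals, filled for the brightest probe and open for another probe of the same gene. Triangles give the difference in Cy5 alone. The intervals of Dusp1, Dusp5 and Dusp6 lie below 0, those of Spry1 and Spry2 are short and straddle 0, and the sign of Spry4 differs between the ratio and Cy5 alone.

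Seen animal by animal, wild-type animal 3 and wild-type animal 2 were above the median of the 7 animals for 8 and 7 of the 10 genes. Wild-type animal 3 was the highest of all for 5 genes, and wild-type animal 1 was above the median for only 3. Transgenic animals 2, 3 and 4 were below the median for 7, 6 and 6 genes, and transgenic animal 1 for 3. The genes therefore did not follow a common order of animals: Dusp4 and Spry4 were lowest in wild-type animal 2, in which Dusp1 was highest.

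The genes around these brakes were read from lists of 115 further pathway genes, of which 110 were tested. Of these, 6 were lower and 1 was higher at an unadjusted P of 0.05, where 4.35% and 3.6% of all genes were, and none passed after adjustment. Genotypes did not overlap for 5 of the 110 with the transgenics lower and for 3 with the transgenics higher (4.51% and 4.6% of all genes). The median log2 difference over the lists was -0.04. Among 16 other MAP kinase phosphatases and related genes none passed in either direction (median -0.07, lowest limma adjusted p 0.587). Among 16 tested of 18 other feedback inhibitors, 1 was higher and none lower, with a median of -0.05 (Spry3 was not tested, and Sef is an older name of Il17rd). That gene was Il17rd, a membrane inhibitor of FGF receptor signaling. It read 0.38, 0.54 and 0.48 in the wild-types and 0.77, 0.81, 1.02 and 0.83 in the transgenics, with no overlap, as 4.6% of all genes were with the transgenics higher. It was higher by 0.39 on the log2 scale (SE 0.12, limma adjusted p = 0.432), but by 0.19 in Cy5 alone.

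Upstream, 24 of 26 receptors and ligands were tested (not Tgfa and Ereg), of which 1 was lower and none higher, with a median of -0.11. The lower gene was Egf, which encodes epidermal growth factor, a ligand of the EGF receptor. Egf read 0.19, 0.70 and 1.27 in the wild-types and -0.07, -0.42, -0.09 and -0.23 in the transgenics, without overlap. Egf thus differed by -0.92 on the log2 scale (SE 0.25, limma adjusted p = 0.409). Genotypes not overlapping with the transgenics lower were found for 4.51% of all genes. In the same list Erbb4 did not overlap with the transgenics higher (log2 difference 0.19, limma adjusted p = 0.677), as for 4.6% of all genes. No gene passed among 19 core Ras-ERK components (median 0.02) or among 17 tested of 18 genes of the JNK and p38 route (median 0.02, Mapk10 not tested). Among the core components Nras did not overlap, with the transgenics lower (log2 difference -0.26, limma adjusted p = 0.599).

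Of the 18 ERK targets, 5 were lower and none higher at an unadjusted P of 0.05 (4.35% and 3.6% of all genes), with a median of -0.25. Genotypes did not overlap for 3 targets with the transgenics lower (Egr1, Junb and Epha2, 4.51% of all genes). They did not overlap for 1 with the transgenics higher (Fosl1, log2 difference 0.25, limma adjusted p = 0.596, 4.6% of all genes). Of the 5 lower genes, Egr1, Junb and Ier3 stood among the genes that the study had singled out from these arrays. The list was drawn up with earlier results known, so its counts are a description and no independent evidence of a direction. Egr1, Egr2, Fos and Junb encode immediate-early transcription factors. Egr1 read -2.30, -2.11 and -0.81 in the wild-types and -3.77, -2.62, -2.83 and -3.80 in the transgenics, without overlap (log2 difference -1.51, SE 0.46, limma adjusted p = 0.429). Junb read -1.07, -0.91 and -0.63 against -1.67, -1.37, -1.80 and -1.39, again without overlap (-0.69, SE 0.17, adjusted p = 0.391).

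Fos read -2.42, -0.85 and -1.69 in the wild-types and -2.95, -2.94, -4.03 and -2.18 in the transgenics (log2 difference -1.37, SE 0.50, limma adjusted p = 0.492). Egr2 read 1.74, -0.02 and 1.79 against -0.37, -0.40, 0.68 and -0.98 (-1.44, SE 0.55, adjusted p = 0.509). The genotypes overlapped for both, by transgenic animal 4 for Fos and by wild-type animal 2 for Egr2. The fifth, Ier3, was named after its value was seen, at -0.61 (SE 0.20, adjusted p = 0.462). The remaining 13 genes of the list, among them Etv1, Etv4, Etv5, Ccnd1 and Myc, did not pass the threshold.

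**Figure D4:**
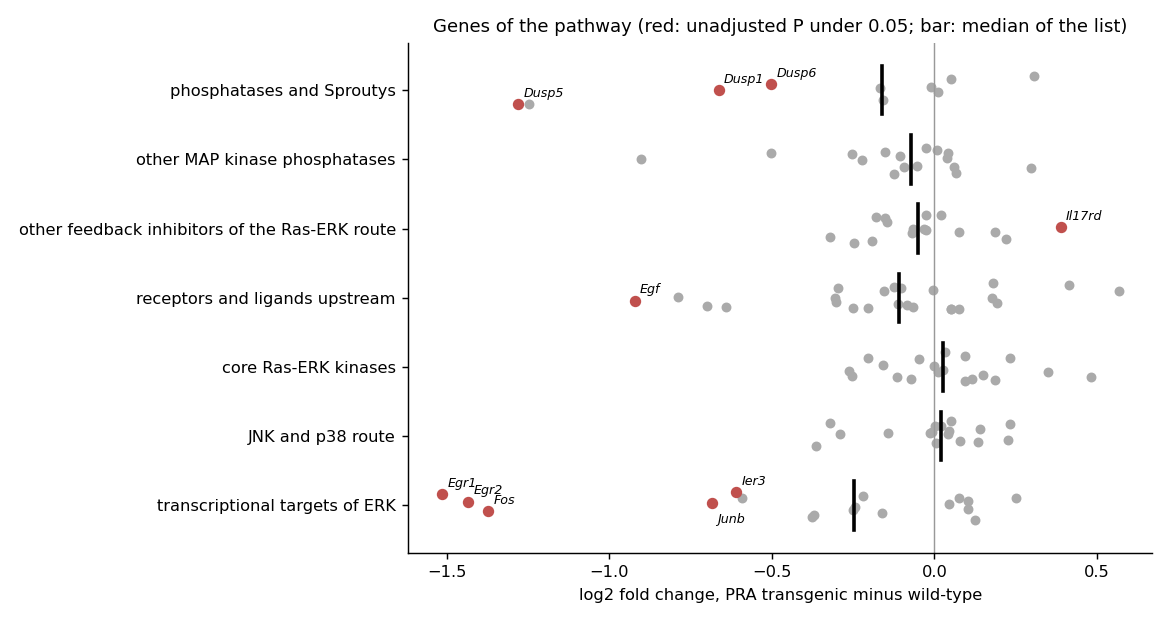
Log2 difference between genotypes (x axis, PRA transgenic minus wild-type) for the 10 phosphatases and Sproutys and for the tested genes of 6 pathway lists, 1 point a gene by its brightest probe, spread vertically at random within each list. Red points passed an unadjusted P of 0.05 and are named, and the bar is the median of the list. No gene passed after adjustment, and the lists were drawn up with earlier results of these arrays known.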

How the data were processed

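Gland and reference RNA of 7 arrays were measured in 2 colours. The deposited scanner files hold intensity values that the authors' software (Agilent Feature Extraction, 12.0 in the submitters' processing notes and 11.5.1.1 in the file header) had background-subtracted, detrended and dye-normalized. A deposited series table holds log2 ratios, used as an alternative only. Samples were grouped by their labels, and 0 columns belonged to other samples.

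From the processed intensity values log2(Cy5/Cy3) was computed. Control spots and spots flagged as outliers were left out, and repeated spots of 1 probe entered as their mean. A probe was tested if its Cy5 signal passed the scanner software's background test on every array of 1 genotype or of both. Linear models with moderated variances were fitted to all probes together (R 4.3.3, limma 3.58.1), with Benjamini-Hochberg adjustment, after the steps had been tested on simulated data. For Cy5 alone, log2 Cy5 minus the array's 75th percentile was used. The number of arrays, 1 per animal, limits the precision. Probe positions are on mm9, as in the files, promoter windows are RefSeq's on GRCm38.p6, and the builds were not mixed. The exon or untranslated region that a probe lies in was not looked up, since no mm9 annotation was used here.

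The members and lists were chosen with earlier results of these data known. Named are the 10 members, genes of each list past an unadjusted P of 0.05 (at most 4 each way) and the 5 nearest patterns of the member with the lowest P and of the most variable one. Beyond this rule, Ier3 was named as a further lower ERK target. Erbb4, Nras, Epha2 and Fosl1 did not pass the threshold and were named because their genotypes did not overlap. Alternatives were normexp (offset 50) with loess, the series table, no filter or both channels above background, Cy5 alone (75th percentile or quantile), quantile normalization, the methods' t-test, array weights, a variance trend on intensity, a replicate block, outlier spots kept, the median over a gene's probes and each array left out in turn. With 1 slide, no slide block was possible.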

Additional observations from a re-analysis of the deposited data

Results flagged for a closer look

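The 4 transgenic arrays were examined for an animal far from the others in 19 measures, the 10 genes and 9 marker lists, and 3 stood out, while chance gives about 1 in 20 (0.95 here). Spry1 was lowest in transgenic animal 1, at 0.51 beside 0.76 to 0.80 in the other 3, a gap of 0.891 of the whole range. The skeletal muscle list was highest in transgenic animal 4, at 3.00 beside -0.93 to -0.51 (0.892 of the range), and it also read 2.03, -0.78 and 2.92 in the wild-types. The fibroblast list was highest in the same animal, at 3.22 beside 2.75 to 2.80 (0.89 of the range). Transgenic animal 4 was also the transgenic animal highest for Dusp1 (-0.68), Dusp5 (-2.0), Dusp8 (1.14) and Fos (-2.18). The same animal was the lowest of the transgenics for Dusp4 (0.01), Dusp6 (-1.65), Spry4 (-0.38), Egr1 (-3.80) and Egr2 (-0.98). Without it the log2 difference between genotypes was -0.78 for Dusp1 and -1.61 for Dusp5.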

How the results depend on the processing

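The count of 3 members past an unadjusted P of 0.05 was 1 (Dusp6) by the methods' t-test, 4 with array weights, which added Dusp2, and 2 with Cy5 alone. With 1 array left out it ran from 1 to 3, and it was 1 (Dusp6) without wild-type animal 3 or without transgenic animal 3. No member passed an adjusted p of 0.05 under any of these alternatives. The 7 pathway genes past the threshold became 13 with normexp and loess and 11 with array weights, and ran from 5 to 12 with 1 array left out, with 12 without transgenic animal 4. Over all 34288 probes tested 3094 passed, with 2589 under normexp and loess, 4048 with array weights and 4233 without transgenic animal 4. By the methods' t-test 3158 passed, and with Cy5 alone 2993. Without wild-type animal 1 the count was 2828, without wild-type animal 3 it was 2566 and without transgenic animal 3 it was 2279. The counts of members and pathway genes thus changed while the count over all probes changed too. When no filter was set, 5154 of 56605 probes passed. Arrays with the same replicate number deviated with correlations of 0.0997, -0.297 and 0.0362, and 1 of 6 arrays correlated best with its own number. With 3 such pairs, and values centred within each genotype, these correlations cannot decide whether the animals were paired. With the replicate number as a block, 2 members passed (Dusp5 and Dusp6), 9 pathway genes did and 3371 of all probes did, with Dusp6 at -0.48.

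Dusp1, Dusp2, Dusp5 and Dusp6 kept a negative difference in 20 of 20 alternatives each. The 6 members near 0 changed sign in some. Dusp4 was -0.38 without wild-type animal 2, -0.10 without transgenic animal 1 and -0.11 without transgenic animal 2. Dusp8 was 0.047 without transgenic animal 3. Dusp10 was 0.23 without wild-type animal 2 and 0.14 without transgenic animal 2. Spry1 was 0.039 with array weights, and 0.011, 0.035 and 0.054 without wild-type animal 2, wild-type animal 3 or transgenic animal 1. Spry2 was -0.098 and -0.083 in Cy5 alone (75th percentile and quantile), -0.0053 with quantile normalization, -0.0023 with array weights, and -0.020 and -0.064 without wild-type animal 3 or transgenic animal 1. Spry4 was -0.073 and -0.15 in Cy5 alone and -0.014 without wild-type animal 2, and had no value when both channels had to be above background. With each array left out in turn, Dusp4 ran from -0.38 to 0.53, Dusp8 from -0.35 to 0.047, Dusp10 from -0.63 to 0.23, Spry1 from -0.080 to 0.054, Spry2 from -0.064 to 0.065 and Spry4 from -0.014 to 0.68. The cause of these changes was not tested.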
